A study of Homo sapiens with 12 samples.

Results

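CFPAC1 is a human pancreatic ductal adenocarcinoma cell line, and the comparison described here sets 2 clones grown out of it against the uncloned line. H3K27ac, acetylation of histone H3 at lysine 27, was mapped by chromatin immunoprecipitation and sequencing (ChIP-seq) in 12 libraries of 6 groups, of which 4 libraries make up this comparison. They were chosen by their labels: 2 libraries of the untreated bulk line, labelled H3K27Ac_CFPAC1_UT_1 and 2, and 2 of wild-type (WT) clones, labelled H3K27ac_CFPAC1_WT_clone_1 and 2. The clones were obtained by limiting the cells to single founders by dilution after infection with the lentiCRIPSv2 plasmid, and the labels name neither Cas9 nor a guide RNA for them. The 4 other CFPAC1 libraries were used as a reference: 2 clones isolated in the same way from cells whose plasmid carried wt Cas9 and a guide RNA against IRF1, and 2 libraries of the bulk line given 1000 U/ml of human IFN-β for 2 hours. MiaPaCa2, another pancreatic cancer line, gave 2 untreated libraries that served as an outside reference, and 2 treated ones that entered the estimate of spread only. CFPAC1 was grown in IMDM and MiaPaCa2 in DMEM, and the same Abcam antibody was used throughout. Each WT library is a separate clone, but no source says that the 2 bulk libraries are separate cultures, so p-values measure only the spread between these libraries, which may be technical. Infection with the vector and outgrowth from a single cell always occur together here and cannot be told apart, and no uninfected clone and no infected bulk culture were analysed here.

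H3K27ac is laid down by the acetyltransferases p300 and CBP on nucleosomes next to active promoters and enhancers, and regions that lose activity lose the mark. A carcinoma line is a mixture of cells that differ in chromosome content and in chromatin state, and a clone carries on the karyotype and much of the state of 1 founder cell. In pancreatic cancer cells these states are often placed between a classical, epithelial form, marked by mucins, trefoil factors and CEACAM proteins, and a form with mesenchymal features, marked by vimentin and by transcription factors of the ZEB and TWIST families. In bulk material, a mark present in fewer cells and a weaker mark in every cell cannot be told apart.

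The deposited lists held 97460 and 102857 peaks in the bulk libraries and 90159 and 80618 in WT clones 1 and 2, within the series' range of 59896 to 109861. These peaks covered 84.7 and 94.8 Mb in bulk and 85.8 and 75.6 Mb in the clones. The read depth is unknown, so no counting interval was computed. The Jaccard index, the shared fraction of the bp covered by either of 2 libraries, was 0.652 between the bulk libraries and also 0.652 between the clones. It was 0.657, 0.639, 0.635 and 0.614 in the 4 pairs of a bulk library with a clone, and 0.253 to 0.293 between any of the 4 libraries and untreated MiaPaCa2. Measured over the whole genome, then, a clone overlapped a bulk library about as well as the bulk libraries overlapped each other.

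Genes were compared by covered length, which is how many bp around the gene start, out to 5 kb in each direction, lay under peaks, on the scale log2(bp + 500), centred on each library's mean. For the 4161 genes whose strand the promoter table did not give, the better covered end was used, as for BMP2, SEMA6A, COL22A1, IDO1, LYZ, C3, KRT19 and CDH1 in what follows. The median absolute log2 difference per gene was 0.129 between the bulk libraries, 0.159 between the WT clones and 0.135 to 0.155 between a bulk library and a clone. More genes differed by over 1 on the log2 scale between the 2 WT clones (490 genes, 3.28%) than between the 2 bulk libraries (223, 1.49%), and the 2 IRF1 knockout clones differed at 824 (5.52%). Bulk and clone libraries differed at 333 to 444 genes. The clones were therefore at least as far from each other, gene by gene, as from the bulk line.

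Against that spread, limma with Benjamini-Hochberg adjustment over 14931 genes called 1 gene higher in the WT clones at an adjusted p under 0.05 (0.0067% of genes) and 0 lower (0.0%). At an unadjusted p under 0.05 it counted 408 genes higher (2.73%) and 519 lower (3.48%). Covered length did not overlap between the groups, with both clones above both bulk libraries, at 2226 genes (14.9%), and with both clones below at 2235 (15.0%). The gene called was ZEB2. Under each alternative setting, at most 11 genes were called in a direction.

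ZEB2, which encodes a zinc-finger repressor of E-cadherin that drives epithelial-mesenchymal transition, had no peak within 5 kb of its start (chr2:144520119, minus strand) in either bulk library. The 2 WT clones had 1430 and 1011 bp there. ZEB2 was thus marked in both clones and in no bulk library, and the fitted difference was 1.78 ± 0.18 (log2, SE, limma adjusted p = 0.0321, n = 2 and 2). The clones' peaks lay on both sides of the start, at 1671 to 1955, 2309 to 2916 and -3985 to -3449 bp in clone 1, negative distances being upstream. In clone 2 they lay at 1632 to 1948, 2209 to 2408, 2571 to 2825 and -3770 to -3532 bp. Together they made 3 neighbouring loci with peaks in both clones and none in bulk, over chr2:144517203-144524104 (6.9 kb), 1 of the 6 longest runs of this kind in the genome. The call rests partly on the other groups, since ZEB2 was at 0 in 4 of the 6 groups, which add almost no spread. Without bulk library 1 or 2 the adjusted p was 0.245 or 0.219, without WT clone 2 it was 0.0594, without treated bulk library 1 or 2 it was 0.0661 or 0.0659, and with the 4 libraries fitted alone it was 0.394. With the same number of peaks from each library it was 0.315 (difference 1.24), at a −log10 q of at least 5 it was 0.326 (1.28), and in windows of 2 kb it was 0.476 (0.68). Of 17 alternative settings, those without a library of another group not counted, 8 called ZEB2.

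LCP1 encodes L-plastin, an actin-bundling protein of leukocytes that many carcinoma cells also make. Its start (chr13:46182177, minus strand) had 402 and 298 bp covered in bulk and 3822 and 1699 bp in the WT clones. Both clones were well above both bulk libraries, with a difference of 1.87 ± 0.26 (limma adjusted p = 0.0836). The bulk libraries held 1 narrow peak each, 488 to 889 and 198 to 495 bp downstream of the start. In clone 1 a peak ran from -1430 to 1420 bp at an authors' fold enrichment of 16.8, and in clone 2 one from -116 to 804 bp at 12.4, against 3.92 and 6.11 for the bulk peaks.

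VIM encodes vimentin, the intermediate filament of mesenchymal cells, and was already broadly covered in bulk, with 3953 and 3729 bp. The WT clones had 6101 and 5659 bp, so that both clones again lay above both bulk libraries (0.57 ± 0.09, limma adjusted p = 0.126). TWIST2, a basic helix-loop-helix factor of mesenchymal cells, had 464 and 574 bp in bulk and 2581 and 1478 bp in the clones, without overlap (1.29 ± 0.23, limma adjusted p = 0.161). In bulk the single TWIST2 peak lay upstream of the start, at -690 to -227 bp in library 1 and -806 to -233 bp in library 2, and both clones had further peaks on the downstream side. None of LCP1, VIM and TWIST2 passed the adjusted threshold in this comparison.

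The promoter windows of these genes show how differently the new coverage sat relative to the start. At LCP1 0 of the 300 bases of the RefSeq promoter window (250 before to 50 after the start, GRCh38.p14) lay under a peak in either bulk library, whereas 300 and 195 did in WT clones 1 and 2. At VIM the number was 159 and 129 in bulk and 300 in each clone. At ZEB2 the window held no peak in bulk or in the WT clones, and at TWIST2 it was covered over 24 and 18 bases in bulk and 56 and 0 in the clones. The windows are printed 5′ to 3′ on the gene's strand, because they mark the stretch that came under peaks at LCP1 and VIM and that stayed outside them at ZEB2. Capitals mark matches, on either strand, to the letters CACCC, found in KLF-type sites, or to a GAAA repeat (GAAA, any 2 bases, GAAA), found in interferon response elements.
LCP1, chr13:46182128-46182427, minus strand: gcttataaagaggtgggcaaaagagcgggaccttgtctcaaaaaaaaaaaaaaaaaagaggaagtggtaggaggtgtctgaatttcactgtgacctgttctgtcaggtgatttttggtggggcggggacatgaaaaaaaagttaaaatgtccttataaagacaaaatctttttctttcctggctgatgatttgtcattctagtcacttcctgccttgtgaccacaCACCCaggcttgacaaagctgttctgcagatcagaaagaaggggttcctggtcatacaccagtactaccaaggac
VIM, chr10:17227991-17228290, plus strand: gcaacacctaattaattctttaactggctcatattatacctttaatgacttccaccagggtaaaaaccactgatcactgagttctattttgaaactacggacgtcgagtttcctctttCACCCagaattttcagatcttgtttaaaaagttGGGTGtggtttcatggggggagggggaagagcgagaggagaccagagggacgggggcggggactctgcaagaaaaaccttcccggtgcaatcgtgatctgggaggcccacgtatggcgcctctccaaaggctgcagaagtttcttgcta
ZEB2, chr2:144520070-144520369, minus strand: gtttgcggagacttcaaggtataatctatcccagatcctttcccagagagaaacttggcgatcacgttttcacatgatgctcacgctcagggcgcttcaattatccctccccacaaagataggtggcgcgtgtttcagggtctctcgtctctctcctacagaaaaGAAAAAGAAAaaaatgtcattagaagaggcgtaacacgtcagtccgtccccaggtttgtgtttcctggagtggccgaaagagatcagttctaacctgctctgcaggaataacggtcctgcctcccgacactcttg
TWIST2, chr2:238847835-238848134, plus strand: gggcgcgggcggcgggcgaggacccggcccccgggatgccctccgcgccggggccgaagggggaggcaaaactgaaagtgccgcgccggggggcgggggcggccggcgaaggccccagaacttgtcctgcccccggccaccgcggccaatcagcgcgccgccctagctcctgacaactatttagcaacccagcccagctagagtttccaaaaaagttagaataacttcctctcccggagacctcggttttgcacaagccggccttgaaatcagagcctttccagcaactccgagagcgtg
The windows hold 2 CG dinucleotides at LCP1, 10 at VIM, 14 at ZEB2 and 29 at TWIST2, against a median of 25 over 11915 promoters of tested genes. TWIST2 has none of the letters searched, and LCP1 holds CACCC once and VIM 2 times, letters found in 64.2% of those promoters. ZEB2 holds the GAAA repeat once, as 2.75% of promoters do.

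**Figure D1:**
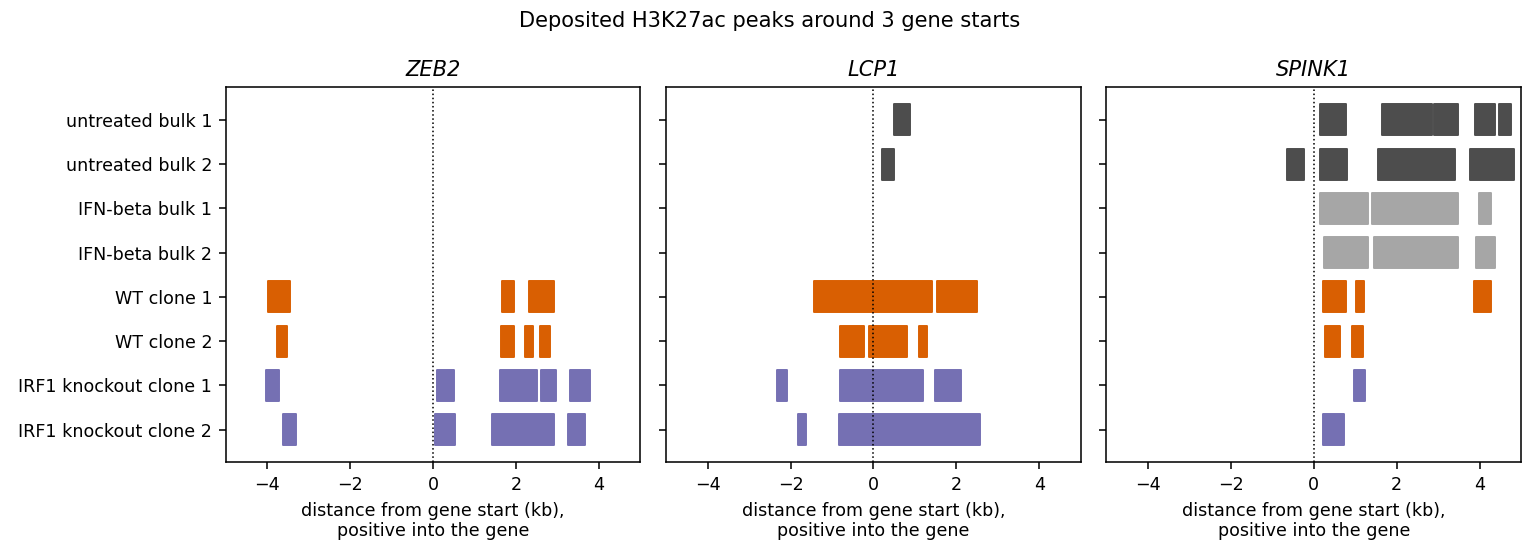
Deposited peaks around the starts of ZEB2, LCP1 and SPINK1 in the 8 CFPAC1 libraries, by distance from the start in kb along the gene's strand. Each bar is 1 peak. Peaks at ZEB2 appear in the WT and IRF1 knockout clones only, the narrow LCP1 peaks of bulk give way to broad ones across the start in the clones, and the SPINK1 peaks of the clones are narrower than those of bulk.

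The other genes with the smallest p among those higher in the clones were WNT9A, TGM5 and MYO16. WNT9A, a secreted WNT ligand, had 0 bp in both bulk libraries and 1600 and 1307 bp in the WT clones (1.97 ± 0.24, limma adjusted p = 0.0755). TGM5, a transglutaminase of the cornified epidermis, had 0 bp in bulk and 805 and 660 bp in the clones (1.31 ± 0.18, limma adjusted p = 0.0836). It was at 0 in the other 10 libraries, so it was tested only because of the WT clones, and the other 5 groups add almost no spread. MYO16, an unconventional myosin, had 200 and 309 bp in bulk and 1284 and 1434 bp in the clones (1.32 ± 0.22, limma adjusted p = 0.141). All 3 were separated between the groups and none passed the threshold. The MYO16 value depends on the end measured: at its better covered end the difference was -0.60.

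Among genes lower in the WT clones, the largest difference was at ITIH2, which encodes a heavy chain of the inter-alpha-trypsin inhibitors that bind hyaluronan. It had 2765 and 2559 bp in bulk and 0 bp in both clones (-2.65 ± 0.35, limma adjusted p = 0.0836). The promoter table holds no strand for ITIH2, so its better covered end (chr10:7703316) was used. The bulk peaks counted there made up 4 neighbouring loci that were lost from both clones, over chr10:7700970-7708112. These loci are the same peaks and not a second observation. Only 2 genes had at least 1 kb covered in both bulk libraries and none in either clone: ITIH2 and RHOH, with 1139 and 1509 bp in bulk. The reverse, at least 1 kb in both clones and none in bulk, held for ZEB2 and WNT9A.

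SPINK1, the pancreatic secretory trypsin inhibitor, had 3156 and 4016 bp in bulk and 1168 and 604 bp in the WT clones. Both clones were below both bulk libraries, with a difference of -1.57 ± 0.22 (limma adjusted p = 0.0836). At the peak just downstream of its start the authors' fold enrichment was 11.1 and 12.5 in bulk and 5.52 and 4.66 in the clones. LIFR, the receptor subunit through which leukaemia inhibitory factor signals to STAT3, had 4345 and 3821 bp in bulk and 1736 and 1713 bp in the clones, which were nearly identical to each other (-1.03 ± 0.16, adjusted p = 0.126). Of 23 loci nearest to LIFR, 8 were lost from both clones and 0 were gained.

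BPIFB1, a secreted airway defence protein, had 2413 and 1170 bp in bulk and 82 and 0 bp in the clones (-2.02 ± 0.30, limma adjusted p = 0.12). BMP2, a bone morphogenetic protein, had 1152 and 719 bp in bulk and none in either clone (-1.49 ± 0.23, adjusted p = 0.126). Both genes lie on chromosome 20, whose coverage was lower in the clones as a whole, as described further on. COL22A1, a collagen of tissue junctions on chromosome 8, had 851 and 752 bp in bulk and none in the clones (-1.37 ± 0.22, adjusted p = 0.141). Leaving out an IRF1 knockout clone leaves the 4 libraries as they are but alters the estimate of spread and, slightly, the number of genes tested (14796 or 14741): without knockout clone 1 or 2 limma called 6 genes higher and 11 lower, among them LCP1, WNT9A, ITIH2, SPINK1, BPIFB1 and COL22A1 both times (adjusted p from 0.0437 to 0.0495). Without WT clone 1, when clone 2 stands alone and is assumed to vary like the other groups, it called 11 genes lower, of which SLPI, GGT7, ACSS2, ACTR5 and PIGU lie on chromosome 20.

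**Figure D2:**
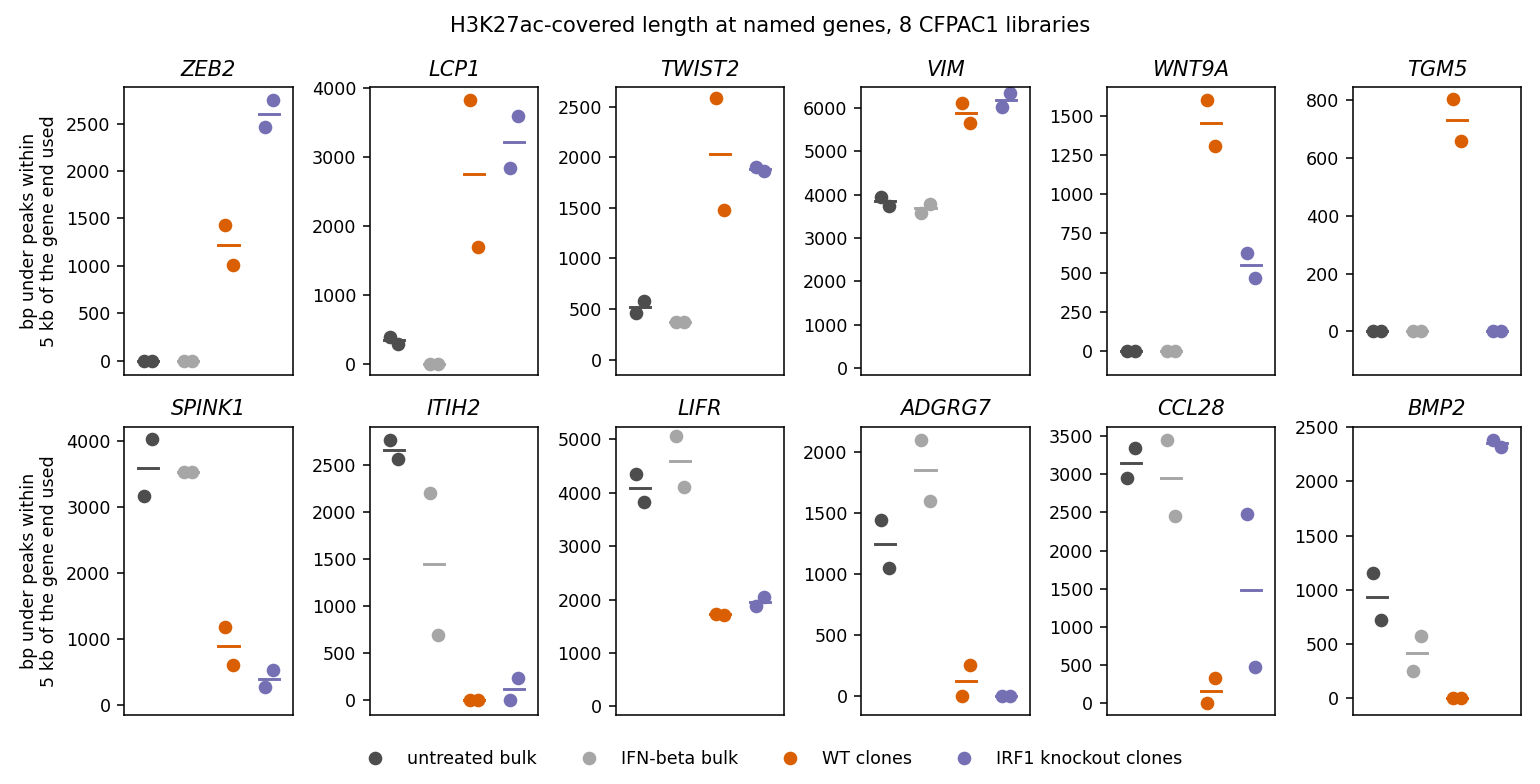
Covered length in bp within 5 kb of the gene end used, for 6 genes higher and 6 lower in the WT clones, in each of the 8 CFPAC1 libraries (points) with the group mean (bar). The 2 WT clones sit above both untreated bulk libraries in the upper row and below them in the lower row, and the IRF1 knockout clones are close to the WT clones at LCP1, VIM and LIFR but not at BMP2.

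Whether other clones show the same differences was looked at in the 4 CFPAC1 libraries outside the comparison. The difference of IRF1 knockout clones minus IFN-β treated bulk shares no library with WT clones minus untreated bulk. It is from the same fit with a shared estimate of spread, was added after the values were seen, and includes the knockout and the treatment besides the cloning. Of the 12 genes with the smallest p named above (6 higher, 6 lower), 9 had a difference of the same sign there. In 7 of them limma called it at an adjusted p under 0.05, where the background was 3.75% of genes called higher and 4.29% called lower. These were ZEB2, LCP1, VIM, MYO16, ITIH2, SPINK1 and LIFR. BMP2 was called in the opposite direction, and WNT9A, TGM5, BPIFB1 and COL22A1 were not called. The 12 genes were picked by small p in the same fit, which favours genes of small spread. The share of all genes called is therefore not a like background for them.

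ZEB2 had 2462 and 2747 bp in the knockout clones and 0 in both treated bulk libraries (2.38 ± 0.18, limma adjusted p = 2.83e-04). It was marked in all 4 clones of the series and in none of the 4 bulk libraries of CFPAC1. LCP1 had 2851 and 3604 bp against 0 and 0 (2.64 ± 0.26, adjusted p = 8.40e-04), and all 300 bases of its promoter window lay under a peak in both knockout clones. VIM had 6027 and 6334 bp against 3583 and 3776 (0.42 ± 0.09, adjusted p = 0.0179), with its window fully covered in both. In MiaPaCa2 VIM had 8667 and 9407 bp, above every CFPAC1 library, while ZEB2 and LCP1 had none. TWIST2 had 1903 and 1868 bp against 374 and 370 (1.20 ± 0.23, adjusted p = 0.0136).

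SPINK1 had 266 and 520 bp in the knockout clones and 3526 and 3529 bp in treated bulk (-2.44 ± 0.22, limma adjusted p = 5.83e-04). LIFR had 1880 and 2046 bp against 5060 and 4109 (-1.29 ± 0.16, adjusted p = 0.0021), so that its covered length was alike in all 4 clones and larger in every bulk library. ITIH2 had 0 and 233 bp against 2204 and 694 (-1.82 ± 0.35, adjusted p = 0.0136). BMP2 went the other way, with 2383 and 2319 bp in the knockout clones against 255 and 575 bp (1.41 ± 0.23, adjusted p = 0.00687). Its absence from both WT clones was therefore not shared by the other clones. WNT9A stood at 626 and 466 bp in the knockout clones, between the WT clones and bulk, and TGM5 at 0.

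Over all genes the sharing was partial. Of the 408 genes higher in the WT clones at an unadjusted p under 0.05, 261 (64.0%) were above treated bulk in the knockout clones, against 41.6% of all genes, and 70 (17.2%) were called higher and 6 (1.47%) lower. Of the 519 lower genes, 313 (60.3%) were below treated bulk, close to the 58.4% of all genes, while 65 (12.5%) were called lower and 35 (6.74%) higher. Both sets were also picked by small p, so their called shares are not a like comparison with those of all genes. Chromosome 20 held 86 of these 519 genes (16.6%), where it holds 2.83% of genes tested. Outside it 268 of 433 genes (61.9%) were below, against 58.7% of all genes there. These shares moved with the scaling: without centring they were 90.0% for the higher and 33.9% for the lower genes, where 74.9% of all genes were above and 22% below treated bulk.

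The contrast of all 4 clones with all 4 bulk libraries contains the same 4 libraries and also the knockout and the IFN-β treatment, so its values are given beside the others and not as support. It called 209 genes higher (1.4%) and 298 lower (2.0%), or 368 and 144 without centring. The 4 clones and the 4 bulk libraries did not overlap at 112 of the 209 and 119 of the 298. Genes were named from this contrast only among those. Over all 14931 genes the clones lay above at 855 and below at 209. Genes it called higher that were at or near 0 in the bulk libraries include COL6A2, ADGRB2 and PLXND1. COL6A2, a chain of collagen VI, had 238 and 0 bp in untreated bulk, 1107 and 1399 in WT clones, 2131 and 2700 in knockout clones and none in treated bulk (4 against 4: 1.91 ± 0.20, limma adjusted p = 0.00218). ADGRB2, an adhesion G protein-coupled receptor, had none in any bulk library, 1482 and 430 bp in WT clones and 3055 and 2114 in knockout clones (1.90 ± 0.23, adjusted p = 0.00362). PLXND1, a semaphorin receptor, had 200 and 233 bp in untreated bulk, 2124 and 542 in WT clones and 2449 and 2952 in knockout clones (1.82 ± 0.22, adjusted p = 0.00378). That the 4 clones lay above the 4 bulk libraries was a condition for naming these genes. WT clone 2 was the lowest clone at ADGRB2 and PLXND1.

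SEMA6A, a transmembrane semaphorin, had 668 and 586 bp in untreated bulk, 3838 and 1807 in WT clones, 4026 and 3481 in knockout clones and 262 and 0 in treated bulk (4 against 4: 2.02 ± 0.21, limma adjusted p = 0.00214). ATP8B2, a phospholipid flippase, had 321 and 691 bp in untreated bulk and 1994 and 1188 bp in WT clones (1.71 ± 0.15, adjusted p = 0.00102). ADGRG7, an orphan adhesion receptor of intestinal epithelium, was lower, with 1439 and 1050 bp in untreated bulk, 0 and 254 in WT clones, none in knockout clones and 2099 and 1600 in treated bulk (-1.98 ± 0.19, adjusted p = 0.00206). Several genes lower in that contrast had their extreme values in treated bulk or in the knockout clones. IDO1, an interferon-induced enzyme of tryptophan breakdown, had 6130 and 5399 bp in treated bulk and 933 and 1030 in untreated bulk. TRIM31, an E3 ubiquitin ligase, had 4751 and 4777 bp in untreated bulk, 3357 and 3637 in WT clones and 0 and 480 in knockout clones. GABRP, a GABA receptor subunit found in pancreatic tumours, stepped from 6918 and 6126 bp in untreated bulk to 3110 and 4333 in WT clones and 248 and 954 in knockout clones (WT clones minus bulk -0.74 ± 0.30, adjusted p = 0.742).

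The identity of the line was shared by clones and bulk. All 13 genes of a list of pancreatic ductal epithelium were covered, 7 with a positive and 6 with a negative difference, and 0 had an unadjusted p under 0.05 in limma. KRT19, the keratin of ductal cells, had 9968 and 9921 bp in bulk and 9701 and 9554 in the WT clones. GATA6, a transcription factor of the classical form, had 4568 and 4674 bp in bulk and 4487 and 4844 in the clones (0.02 ± 0.16, limma adjusted p = 0.998). KLF5 and ELF3, epithelial transcription factors, had differences of 0.01 ± 0.12 and -0.11 ± 0.23, and CDH1, which encodes E-cadherin, had -0.02 ± 0.11 (adjusted p = 0.998 each). Whereas ZEB2 was called higher, its target CDH1 had 5312 and 5287 bp in bulk and 5177 and 5179 bp in the WT clones. ZEB1, the paralogue of ZEB2, had 4434 and 5683 bp in bulk and 5479 and 6201 in the clones, which overlapped (0.21 ± 0.15, adjusted p = 0.991). SOX9 had a difference of 0.02 ± 0.10, MYC of -0.02 ± 0.09 and CDKN2A of -0.07 ± 0.10, and except for CDKN2A and ZEB1 the signs of the values in this paragraph turned under at least 1 other setting.

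Markers of other cell types were in part without coverage in the 4 libraries. No peak was found at 12 of 19 acinar genes, including PRSS1 and CPB1, at 16 of 21 endocrine genes, including INS and GCG, at 8 of 21 immune genes, including PTPRC and CD3D, and at 7 of 14 endothelial genes, including VWF. The summed coverage of the immune list was 14.5 and 11.5 kb in bulk and 11.5 and 12.2 kb in the clones. That of the acinar list was 9.1 and 11.7 kb against 8.7 and 6.8 kb. LYZ counts as both an immune marker and a classical tumour marker, and it was lower in the clones, as given with the classical genes.

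The list of epithelial-mesenchymal transition and mesenchymal genes had 21 of 23 members tested. Of the 17 with coverage in any of the 4 libraries, 13 had a positive and 4 a negative difference, with a median of 0.15 on the log2 scale. Over all genes with such coverage 52.4% were positive, with a median of 0.01. The 4 negative members were FN1 (-0.58), SNAI1 (-0.46), PDGFRA (-0.44) and ACTA2 (-0.03). ZEB2, VIM and TWIST2 were the only members with an unadjusted p under 0.05, and 6 members were at 0 in all 4 libraries, among them TWIST1, SPARC, COL3A1 and PDGFRB. The summed coverage of the list was 29.9 and 35.3 kb in bulk, 43.0 and 37.8 kb in WT clones, 47.1 and 55.6 kb in knockout clones and 26.6 and 25.5 kb in treated bulk. The 4 clones thus lay above the 4 bulk libraries in the sum, with WT clone 2 nearest to bulk. The sum includes ZEB2, VIM and TWIST2, so it does not show a difference across the rest of the list. Among the 21 tested members, both WT clones lay above both bulk libraries at 4 and below them at 1. The background was 14.9% and 15.0% of genes.

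Among classical pancreatic cancer markers most differences were negative. Of 20 members 16 were tested, 11 with a negative and 5 with a positive difference, with a median of -0.17. Both clones lay below both bulk libraries at 9 of the 16 and above them at 0, where the background was 15.0% and 14.9% of genes. ST6GALNAC1, the sialyltransferase that makes the sialyl-Tn antigen, had 6058 and 5575 bp in bulk and 4445 and 4115 in WT clones (-0.39 ± 0.13, limma adjusted p = 0.62). LYZ, which encodes lysozyme, had 3266 and 2724 bp against 1588 and 1936 (-0.62 ± 0.26, adjusted p = 0.742). These 2 were the members with an unadjusted p under 0.05, and in both genes the knockout clones were lower still, at 3430 and 2769 bp and at 799 and 253 bp. A list of basal-like pancreatic cancer markers had 20 of 22 members tested. Of the 18 with coverage in any of the 4 libraries, 9 had a positive and 9 a negative difference (median 0.03). Both clones lay above both bulk libraries at 1 of the 20 and below them at 3, against the same background.

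CEACAM6, an adhesion molecule of classical tumours, had 3845 and 3652 bp in bulk and 3361 and 2045 in WT clones, both below bulk (-0.43 ± 0.21, limma adjusted p = 0.869). In the knockout clones it had 933 and 619 bp, against 4617 and 3307 bp in treated bulk (-2.05 ± 0.21, adjusted p = 9.33e-04). Its promoter window is shown for contrast with LCP1, since all 300 bases were under a peak in both bulk libraries and in both WT clones, and 211 and 257 bases in the knockout clones.
CEACAM6, chr19:41755280-41755579, plus strand: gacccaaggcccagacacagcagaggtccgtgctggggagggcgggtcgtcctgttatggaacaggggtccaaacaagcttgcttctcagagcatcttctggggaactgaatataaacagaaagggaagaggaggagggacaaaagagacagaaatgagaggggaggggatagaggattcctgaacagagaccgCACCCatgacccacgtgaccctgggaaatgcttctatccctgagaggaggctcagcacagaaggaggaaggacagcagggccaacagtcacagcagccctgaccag
Capitals again mark CACCC, present once, and the window has 5 CG dinucleotides. The difference in covered length at CEACAM6 between bulk and WT clones therefore lay outside the promoter window, in the flanks of the 5 kb either side. A window covered in full cannot show a difference in this measure. The peak over it had an authors' fold enrichment of 13.3 and 13.9 in bulk and 10.2 and 9.81 in the WT clones.

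Lists of sterol synthesis, adhesion and mucin genes had small negative medians. Sterol and fatty acid synthesis had 23 of 30 tested members negative (median -0.11), with 10 below bulk in both clones and 2 above, where over all genes 44.8% were negative, 15.0% lay below and 14.9% above. SCD, the desaturase that makes oleate, had 7116 and 7349 bp in bulk and 6015 and 5471 in WT clones (-0.30 ± 0.07, limma adjusted p = 0.388). Adhesion and junction genes had 16 of 24 negative (median -0.08), 7 below bulk in both clones and 1 above, against the same background. Among mucins and mucin glycosylation genes, GCNT3, which branches O-glycans, had 5161 and 4869 bp in bulk and 3394 and 2977 in WT clones (-0.57 ± 0.17, adjusted p = 0.508), and 12 of 23 members were negative. No member of these lists passed the adjusted threshold.

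Inflammatory and signalling genes differed singly. Of 39 tested NF-κB and inflammatory genes 5 were lower and 1 higher at an unadjusted p under 0.05 (3.48% and 2.73% over all genes), and none passed the adjusted threshold. CCL28, a chemokine of mucosal epithelia, had 2947 and 3351 bp in bulk and 0 and 328 in WT clones (-2.49 ± 0.45, limma adjusted p = 0.161), while knockout clones 1 and 2 had 2474 and 479 bp. The coverage of CCL28 was thus near 0 in 3 of the 4 clones. VCAM1, a leukocyte adhesion molecule, had 2343 and 3425 bp in bulk and 572 and 1155 in WT clones (-1.31 ± 0.31, adjusted p = 0.327). C3, the central complement protein, had 5029 and 3548 bp in bulk and 2423 and 646 in WT clones, and NFKBIA, the inhibitor that holds NF-κB in the cytoplasm, 4356 and 3977 against 3557 and 2926. For all 3 genes both clones were below both bulk libraries. JAG2, a Notch ligand, was higher, with 200 and 0 bp in bulk and 1046 and 1593 bp in WT clones (1.62 ± 0.37, adjusted p = 0.327). TGFB3, a TGF-β ligand, had 2421 and 2739 bp against 3760 and 2985 (0.34 ± 0.09, adjusted p = 0.443).

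Interferon genes, the subject of the wider study, were little different between WT clones and untreated bulk. Of 67 tested interferon-stimulated genes 64 had coverage in any of the 4 libraries, 28 with a positive and 36 with a negative difference (median -0.03), and GBP3, a guanylate-binding protein, was the only one with an unadjusted p under 0.05, with 3567 and 2951 bp in bulk and 2079 and 2036 bp in the clones. Their summed coverage was 179.6 and 176.7 kb in bulk and 190.4 and 154.9 kb in the clones, so that WT clones 1 and 2 lay on either side of bulk. IRF1 itself, a transcription factor of this response, had 7777 and 6832 bp in bulk and 5485 and 5611 in the WT clones, without overlap (-0.35 ± 0.14, limma adjusted p = 0.716). In the IRF1 knockout clones the gene had 7533 and 8924 bp. H3K27ac around a gene does not check whether its product is lost. Ribosomal protein genes, constitutive in all cells, had 0 of 41 members past an unadjusted p of 0.05, and their median was 0.06.

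**Figure D3:**
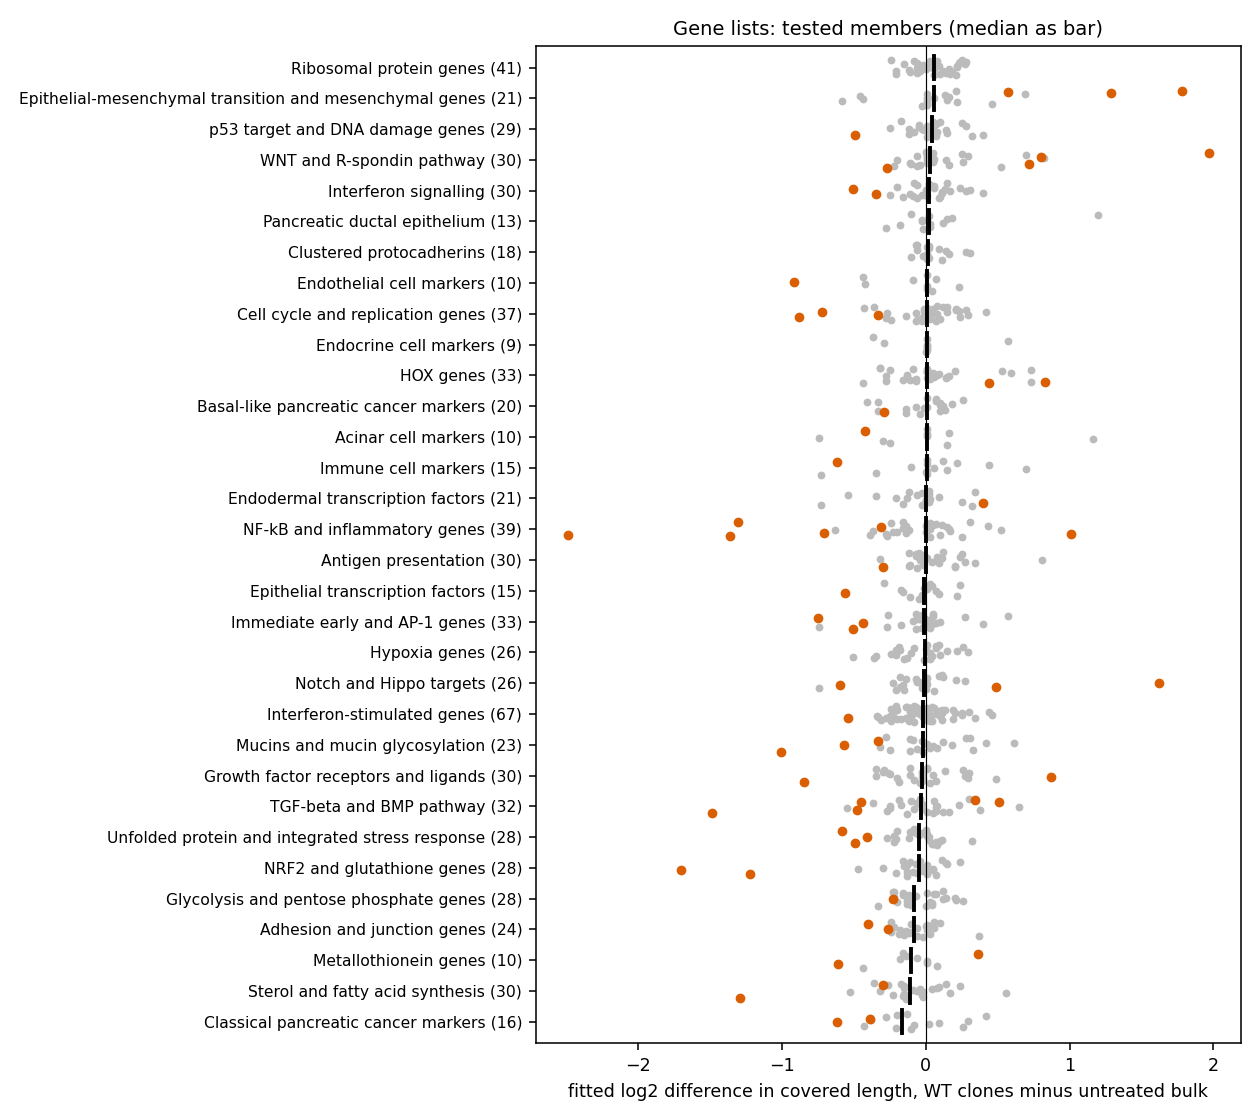
Fitted difference (log2, WT clones minus untreated bulk) of each tested member of the gene lists with at least 9 tested members; orange points have an unadjusted p under 0.05 and the bar is the median. Medians lie between -0.17 (classical markers) and 0.06 (mesenchymal and ribosomal genes), and 0 is inside the range of every list.

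Peaks of the 4 libraries were merged into 119055 loci, of which 44374 were held by all 4 libraries and made up 90.2 of 122.8 Mb. A locus was counted as gained where both WT clones and neither bulk library had a peak in it, and as lost in the reverse case. There were 1828 gained loci (1.54%) and 5363 lost ones (4.5%). No test was made, since an exact permutation test of 2 libraries against 2 cannot reach 0.05. The excess of lost loci depended on the setting. With the same number of peaks kept from each library the counts were 1911 gained and 1738 lost. At a −log10 q of at least 5 they were 1125 and 3226, and with peaks within 500 bp merged 1033 and 2781. The bulk lists were longer, and the part this had in the excess was not tested. Loci held by 1 bulk library and 1 clone numbered 10322 over 4 pairings, or 1303 to 3825 per pairing. Gained and lost loci were narrower and weaker than loci of all 4 libraries. Their median widths were 437 and 485 bp against 1551 bp. The median of the lower of their 2 fold enrichments was 3.86 and 3.66 against 7.16 (clones) and 7.36 (bulk). Narrow width was not particular to them, since loci held by 1 bulk library and 1 clone had a median of 449 bp.

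Gained loci lay within 1 kb of a gene start in 7.06% of cases and lost loci in 3.9%, against 14.2% of all loci. Loci of all 4 libraries, which are part of that share, did so in 30.01% of cases. Those held by 1 bulk library and 1 clone did so in 5.9%, below gained and above lost loci. They also differed in where else they were found. Gained loci had a peak in 43.1 and 54.5% of cases in knockout clones 1 and 2 and in 17.1 and 14.4% in treated bulk. Lost loci had one in 27 and 40.2% of cases in the knockout clones and in 37.9 and 38.5% in treated bulk. Loci held by 1 bulk library and 1 clone gave 35.2 and 47.5% for the knockout clones and 26.4 and 28.7% for treated bulk. The shares of gained loci were thus above these in the knockout clones and below them in treated bulk, and those of lost loci the reverse. Peaks of untreated MiaPaCa2 lay in 30.3 and 25.2% of gained loci and 16.2 and 16.3% of lost ones. These are descriptions, since loci of 1 library are not replicates.

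**Figure D4:**
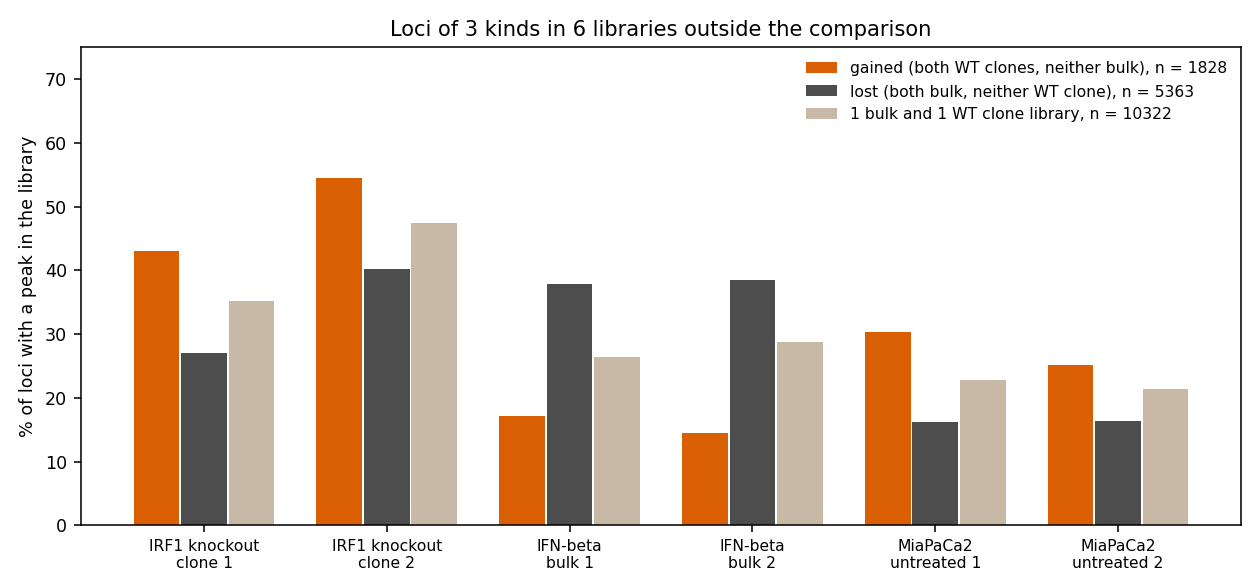
Percentage of loci gained in both WT clones, lost from both, or held by 1 bulk library and 1 clone that also had a peak in each library outside the comparison (IRF1 knockout clones, IFN-β treated bulk, untreated MiaPaCa2). Gained loci are highest in the knockout clones (43.1 and 54.5%) and in MiaPaCa2 (30.3 and 25.2%), and lost loci are highest in treated bulk (37.9 and 38.5%).

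Single loci with the highest enrichment are given by the lower of their 2 fold values. The strongest gained locus lay 2213 bp from an end of CTBP2, a transcriptional corepressor (chr10:125159920-125160250), at folds of 10.3 and 9.46. It was also covered in both knockout clones (331 and 268 bp) and in both treated bulk libraries (232 and 253 bp), so among CFPAC1 libraries only untreated bulk had no peak there. Another lay 202 bp from NUAK1, an AMPK-related kinase (chr12:106138124-106138752), at 12.4 and 8.48. This stretch was also covered in both knockout clones and in neither treated bulk library. At the gene start NUAK1 had 1327 and 1288 bp in bulk, 2152 and 1987 in WT clones and 4415 and 4295 in knockout clones. Near TGM5 a gained locus of 1687 bp (chr15:43252929-43254615) stood beside one of 2016 bp (chr15:43248621-43250636), at 12313 and 16292 bp from the gene. The strongest lost locus had API5, 1527005 bp away, as its nearest gene (chr11:41783597-41784991), at folds of 11.4 and 13.9 in bulk. It was present in both knockout clones and in both treated bulk libraries, so that among the CFPAC1 libraries the WT clones alone lacked it. Untreated MiaPaCa2 had no peak there either. A lost locus whose nearest gene, PCDH18, is 867386 bp away (chr4:136663880-136665108) was absent from all 4 clones and present in all 4 bulk libraries, and the widest lost locus, of 3363 bp near MPEG1 on chromosome 11, was absent from all 4 clones and from treated bulk library 2, with 292 bp in treated bulk library 1.

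Some genes collected several such loci. COL6A2 had 6 gained among 18 assigned loci, TNFRSF1B, a receptor for tumour necrosis factor, 5 of 17, and WNT7B, a WNT ligand, 4 of 28, with 0 lost at each. DEPDC1B had 12 lost among 30, UGCG, the ceramide glucosyltransferase, 10 of 37, LIFR 8 of 23, and EHF, an epithelial ETS factor, 7 of 22, with 0 gained. The longest runs of neighbouring lost loci had 5 members, at TOP1 on chromosome 20 and at EPHA7 on chromosome 6. A further 10 runs had 4, including those at ITIH2 and LIFR. Most called loci had no called neighbour of the same direction: 4353 of the 5363 lost and 1664 of the 1828 gained.

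Chromosomes were compared by their share of the covered bp of a library. Chromosome 20 held 3.14 and 2.82% in bulk and 2.62 and 1.85% in WT clones 1 and 2. Both clones were below both bulk libraries, and the difference was -0.43 ± 0.13 (log2, SE, limma unadjusted p = 0.0103, adjusted p = 0.236 over 23 chromosomes). Knockout clones had 3.26 and 3.52% and treated bulk 2.92 and 2.89%. The value rests mainly on WT clone 2: with clone 1 left out it was -0.68 (adjusted p = 3.78e-04), and with clone 2 left out -0.18 (adjusted p = 0.384). Limma called 0 of 23 chromosomes (0.0%) in either direction, and 1 lower (4.35%) and 0 higher at an unadjusted p under 0.05.

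Each clone carried chromosomes with a share outside the range of the 4 bulk libraries. In no bulk library did any chromosome lie more than 0.25 (log2) from the mean of the other 3, the largest deviations being 0.21 and 0.15 in untreated and 0.10 and 0.10 in treated bulk. Set directly against each other, the untreated bulk libraries differed by over 0.25 at 2 of 23 chromosomes, 19 and 22, and the WT clones at 5, with median differences of 0.098 and 0.053. For the clones the deviations are from the mean of all 4 bulk libraries. WT clone 1 deviated by -0.54 at chromosome 4 (3.66% against 4.79 to 5.61% in bulk) and by -0.39 at chromosome 5 (4.28% against 5.34 to 5.82%). WT clone 2 deviated by -0.67 at chromosome 20 (1.85% against 2.82 to 3.14%) and beyond 0.25 at no other. In WT clone 2 the shares of chromosomes 4 and 5 were 5.23% each. Knockout clone 1 lay beyond 0.25 at 2 chromosomes and knockout clone 2 at 3, among them -0.75 at chromosome 8 and 0.34 at chromosome 2. The chromosomes thus differed from clone to clone, and chromosome 20 was the only one to appear in 2 clones, lower in WT clone 2 and higher in knockout clone 2.

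**Figure D5:**
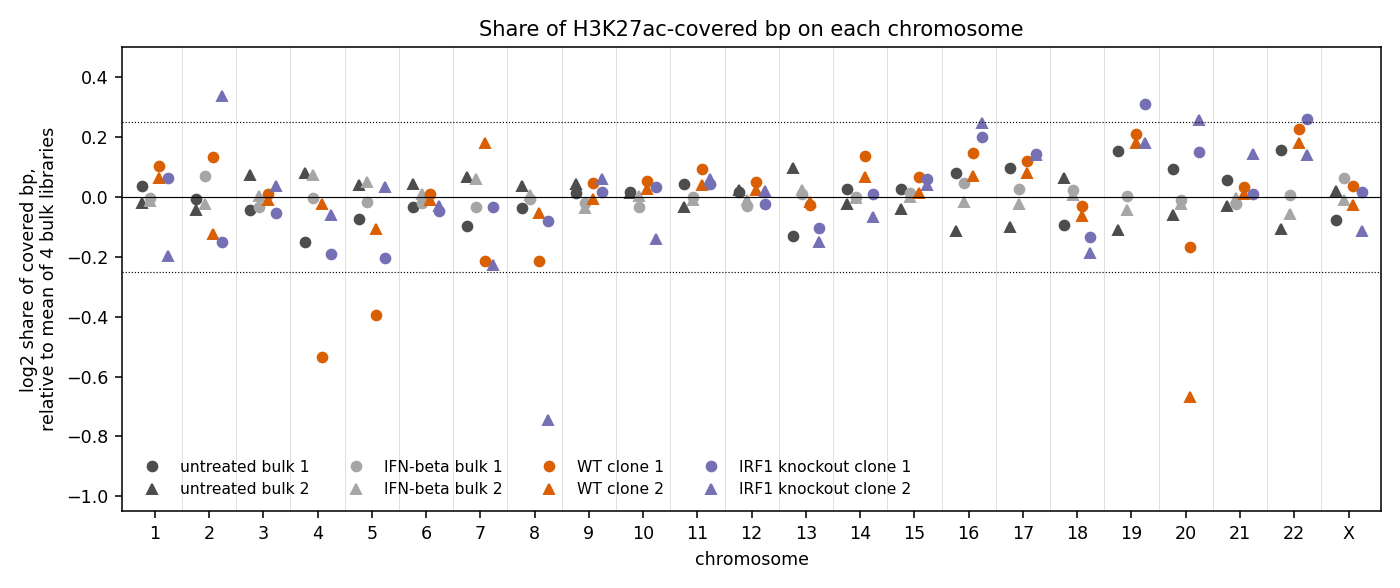
Share of covered bp per chromosome in each of the 8 CFPAC1 libraries, as log2 relative to the mean of the 4 bulk libraries; dashed lines mark 0.25 either side. Bulk libraries, which are part of that mean, stay inside the lines, while WT clone 1 falls below them at chromosomes 4 and 5, WT clone 2 at chromosome 20 and knockout clone 2 at chromosome 8.

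The lower shares ran along the whole chromosome. Of the 5 Mb windows of chromosome 4, 34 of 38 were below the mean of bulk in WT clone 1, and 33 were below all 4 bulk libraries (median -0.65). On chromosome 5 the counts were 35 and 30 of 37 (median -0.31), and on chromosome 20 in WT clone 2 they were 13 and 12 of 13 (median -0.63). In the fit of both clones against bulk, all 13 windows of chromosome 20 were below 0, as were 36 of 38 on chromosome 4 and 33 of 37 on chromosome 5, against 256 of 589 genome-wide. Limma called 0 windows (0.0%) in either direction, with 22 lower (3.74%) and 9 higher (1.53%) at an unadjusted p under 0.05. The window with the smallest p was chr20:5000001-10000000, which contains BMP2. It had 130.0 and 154.3 kb covered in bulk and 79.7 and 40.7 kb in the WT clones, against 113.1 and 146.6 kb in the knockout clones (-1.06 ± 0.20, adjusted p = 0.185).

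Most genes of these chromosomes had a negative difference in the fit of both clones against bulk. On chromosome 20, 329 of 423 tested genes (77.8%) had a negative difference, 86 were lower and 1 higher at an unadjusted p under 0.05, and both clones were below both bulk libraries at 158 genes (37.4%) and above at 5 (1.18%). Over all genes 44.8% were negative, 15.0% lay below and 14.9% above. On chromosome 5, 414 of 651 (63.6%) were negative, and on chromosome 4, 386 of 576 (67.0%). Both clones were below both bulk libraries at 30.1% and 25.3% of genes there, and above at 4.76% and 3.3%. The shares of these 2 chromosomes deviated by -0.39 and -0.54 (log2) in WT clone 1 and by -0.11 and -0.02 in WT clone 2. The list members with an unadjusted p under 0.05 on chromosome 20 were all lower: MAVS, an adaptor of antiviral signalling, had 3267 and 3421 bp in bulk and 2026 and 2349 in WT clones, and E2F1, CEBPB, TRIB3, ACSS2 and BMP2 were below bulk too. ACSS2, an acetyl-CoA synthetase, had 4172 and 4322 bp in bulk, 4008 bp in WT clone 1 and 323 bp in WT clone 2, so that its value came from clone 2 alone. Loci lost from both clones made up 8.9% of loci on chromosome 20, 8.01% on chromosome 5 and 6.55% on chromosome 4. They made up 4.5% of all loci, 6.35% on chromosome 8, where neither WT clone deviated beyond 0.25, and 2.07% on chromosome 19, the lowest. Gained loci made up 0.31, 0.61 and 0.31% on chromosomes 20, 5 and 4, against 1.54% of all loci and 2.44% on chromosome 16, the highest. Of the genes named above, SPINK1, LIFR and CCL28 lie on chromosome 5. WT clones 1 and 2 had shares of 4.28 and 5.23% there, both below the 5.34 to 5.82% of the bulk libraries. WT clone 2 had 604 bp at SPINK1, and at LIFR the clones had 1736 and 1713 bp. The part that whole-chromosome coverage had in the values of single genes was not tested.

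Promoter sequences of the genes that differed were compared with those of all tested genes as a description. The AP-1 letters TGANTCA were in 4.83% of 11915 promoters, in 5.15% of those of genes higher in the WT clones at an unadjusted p under 0.05 (330 promoters) and in 7.65% of those lower (405 promoters). The GATA-type letters AGATAA were in 5.54, 4.24 and 8.64%, the GAAA repeat in 2.75, 1.52 and 4.44%, and CACCC in 64.2, 62.1 and 61.0%. The 4 sets of letters were searched on both strands, and none of them contains another. Genes called lower with 4 clones against 4 bulk libraries held the GAAA repeat in 18.1% of 226 promoters, a set in which treated bulk is on the higher side.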

How the data were processed

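H3K27ac ChIP-seq of 4 CFPAC1 libraries (2 of untreated bulk, 2 WT clones) was analysed, with the other 8 libraries of the series entering the estimate of spread. Per the submitters' processing notes, reads were processed with Trimmomatic 0.38, Bowtie2 2.2.6, SAMtools and MACS2 2.1.0.20150731 on GRCh38; the control library and the filters are not given in the sources used here. The authors deposited 1 peak list per library, with a fold enrichment (a ratio over background) per peak as the authors computed it. The deposited −log10 p and −log10 q of each peak, also the authors', served solely for ordering and thresholding each list. The analysis was limited to chromosomes 1 to 22 and X, and 34 to 55 peaks elsewhere were dropped from each of the 4 libraries. The labels name a pair of sequencers without saying which library ran on which, so a batch of that kind was not tested.

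Covered bp around the starts of 19974 protein-coding genes were computed with Python 3.11.15, numpy 2.4.6 and pandas 2.3.3. Strand came from the RefSeq promoter table (GRCh38.p14), which matched 15813 genes, and positions from the RefSeq gene table. Windows of neighbouring genes can overlap. Genes covered in at least 2 of 12 libraries were fitted as log2(bp + 500) with limma 3.58.1 (R 4.3.3), 1 model of 6 groups with a trended prior, checked on simulated data. Benjamini-Hochberg adjustment ran over all genes, and adjusted p under 0.05 was called. The same model served chromosome shares (log2) and 5 Mb windows (log2 of bp + 5000). Covered length shows how far peaks extend, not their height, and shorter lists lower it. Named genes are those called with groups that do not overlap, then the smallest p up to 6 per direction. Up to 4 members per list by p and 12 fixed line checks were added. In 4 clones against 4 bulk they are the 12 largest differences per direction among called genes whose groups do not overlap. RHOH, NUAK1, SLPI, GGT7, ACTR5 and PIGU were named after their values were seen, as were the genes that separate the WT clones from each other and genes named only for their loci outside the 8 strongest and widest. The members and the 33 gene lists were chosen with earlier results of these data known. The alternatives tried were other pseudocounts, windows, filters, peak thresholds, scalings, sets of libraries and a term for the replicate number.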

Additional observations from a re-analysis of the deposited data

How the results depend on the processing

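Of 1 gene called higher and 0 lower in the WT clones, other settings gave, as higher and lower, 6 and 4 with no filter on covered bp, 6 and 2 at a pseudocount of 100 bp, 1 and 1 at 2000 bp, 4 and 3 with quantile normalization, 3 and 5 with the same number of peaks (SPINK1 and ITIH2 among the lower, ZEB2 not among the higher), 2 and 3 in windows of 10 kb, and 0 higher in windows of 2 kb, at a −log10 q of at least 5, with only the 4 or only the 8 CFPAC1 libraries. Leaving out 1 of the 4 libraries gave 0 to 1 higher (0 without bulk library 1 or 2) and 0 to 11 lower (11 without WT clone 1, 1 without WT clone 2). Leaving out a knockout clone, chosen after seeing the data, gave 6 higher and 11 lower. For 4 clones against 4 bulk (209 and 298), no centring gave 368 and 144, the 8 CFPAC1 libraries alone 106 and 193, windows of 2 kb 134 and 171, and leaving out 1 library 62 to 358 and 65 to 508, lowest without treated bulk library 1 and highest without knockout clone 1. Chromosomes called lower numbered 0 to 1 with 1 library left out (chromosome 20 without WT clone 1, chromosome 4 without WT clone 2), and 5 Mb windows 0 to 3, or 1 at 2 Mb. Gained loci (1828) numbered 1125 at a −log10 q of at least 5, 1033 with peaks within 500 bp merged and 4108 to 12990 without 1 library, which relaxes the rule. Lost loci (5363) numbered 3226, 2781 and 8604 to 24539, and 1738 with the same number of peaks.

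The replicate numbers were not taken to pair libraries, since the deviations of libraries with the same number correlated over genes at 0.078 between bulk and WT clones and at -0.15 to 0.206 between other CFPAC1 groups, the highest being untreated with treated bulk. With a replicate block, 0 genes were called higher and 0 lower in the WT clones, ZEB2 had an adjusted p of 0.114, and 4 clones against 4 bulk gave 163 and 273.

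Signs turned only at MYO16 and at line checks near 0. MYO16 gave -0.60, and -0.68 for 4 against 4, at the better covered end. KLF5 gave -0.36 there, -0.15 at a −log10 q of at least 5, -0.19 with the same number of peaks, -0.18 in windows of 2 kb and -0.0 with no centring. SOX9 gave -0.02 at that −log10 q, -0.06 with the same number of peaks and -0.02 in windows of 2 kb, and GATA6 -0.04 with the same number of peaks. CDH1 gave 0.02 in windows of 10 kb and 0.04 in those of 2 kb, KRT19 0.0 in windows of 2 kb, and MYC 0.01 with quantile normalization. Without 1 of the 4 libraries, KLF5 ranged from -0.03 to 0.04, SOX9 from -0.04 to 0.07, GATA6 from -0.11 to 0.15, CDH1 from -0.10 to 0.06, KRT19 from -0.10 to 0.04, MYC from -0.10 to 0.06 and ELF3 from -0.25 to 0.03. The cause was not tested. The unknown read depth limits any statement that a region had no acetylation: a gene at 0 bp has only no called peak.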

Other observations

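Genes of other pathways differed singly between WT clones and untreated bulk, and none passed the adjusted threshold in limma. Of 24 tested WNT and R-spondin genes with coverage in any of the 4 libraries 15 had a positive and 9 a negative difference (52.4% of all such genes were positive), and besides WNT9A the ligand WNT11 had more coverage in the clones (686 and 239 bp in bulk, 1483 and 821 in WT clones, 1623 and 1711 in knockout clones). FGFR2, a fibroblast growth factor receptor, had 902 and 430 bp in bulk and 1862 and 1309 in WT clones, and EGF, a ligand of the EGF receptor, had 451 and 767 against 0 and 231. In the HOXA cluster HOXA10 had 1467 and 1950 bp in bulk and 2743 and 2179 in WT clones, and HOXA11, whose window overlaps it, 515 and 828 against 1866 and 1259. GCLM, a subunit of the enzyme that starts glutathione synthesis, had 1966 and 2676 bp in bulk and 956 and 0 in WT clones. FOSB, an AP-1 subunit, had 2418 and 2009 bp in bulk, 1383 and 1569 in WT clones and 2713 and 2783 in knockout clones, so that the 2 kinds of clone lay on either side of untreated bulk.

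Some genes differed between the 2 WT clones, and were picked after their values were seen. SPP1, which encodes osteopontin, had 856 and 465 bp in bulk, 830 bp in WT clone 1 and 4638 bp in WT clone 2. CDX2, an intestinal homeobox factor, had 2326 and 2080 bp in bulk, 3206 bp in WT clone 1 and 201 bp in WT clone 2. HMGCS1, an enzyme of cholesterol synthesis, had 6264 and 6115 bp in bulk, 3049 bp in WT clone 1 and 5430 bp in WT clone 2. In each case 1 clone lay closer to bulk than the other, and the differences from bulk had unadjusted p values of 0.0752, 0.194 and 0.0646 in limma.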
